A study of Mus musculus with 8 samples.

Results

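The acyl-CoA thioesterases (Acot) are enzymes that split an acyl-CoA into a free fatty acid and coenzyme A. The genes described here were the 10 members Acot1, Acot2, Acot3, Acot4, Acot7, Acot8, Acot9, Acot11, Acot12 and Acot13, taken as the non-control probes that carry one of these names in the scanner files. They had 12 probes among 55681 non-control probes, and all 10 genes were among the 23999 genes tested. Livers of mice given an adenovirus labelled AdLeXis, which carries the long non-coding RNA LeXis, were compared with livers of mice given a GFP adenovirus labelled AdGFP, with 4 one-colour arrays in each group. The animals of both groups were bl6 mice aged 12 weeks, fed chow, and their liver RNA was isolated on day 6. LeXis is transcribed beside the cholesterol efflux gene Abca1, and the comparison asks which liver transcripts differ when it is raised. The treatment text in the labels names other vectors (a control vector and one against Raly), and the groups follow the treatment tag, which the titles and the design bear out; Raly itself gave 11.63 ± 0.11 in AdLeXis and 11.46 ± 0.20 in AdGFP (SD, n = 4 each; limma adjusted p = 0.358). RNA was from whole liver, so fewer cells of a type and less RNA per cell cannot be told apart.

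Thioesterases work against the acyl-CoA synthetases, and the balance of the opposing reactions sets how much fatty acid is held as acyl-CoA in each compartment of the hepatocyte. Acot1 to Acot6 form one protein type in mouse, encoded side by side and differing in compartment: Acot1 is cytosolic, Acot2 mitochondrial, and Acot3 to Acot5 peroxisomal. The other members belong to a second, unrelated protein type with a so-called hotdog fold. Several of the genes are known in mouse liver as targets of PPARalpha, the fatty acid-sensing nuclear receptor that is active in fasting.

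All arrays lay on 1 slide read in 1 scan, and the groups occupied different positions on it, so slide position and group cannot be told apart. The AdLeXis arrays were brighter before scaling, with a 75th percentile of the processed intensity of 381 to 448, against 220 to 297 on AdGFP arrays (exact permutation p = 0.0286, two-sided, the smallest that 70 relabellings allow). No spot was saturated, and every member probe was well above background on all 8 arrays. Values below are log2 signals after each array was scaled to its 75th percentile, and levels of different probes are not set against each other. Across all genes, 17.5% differed between the groups at a limma adjusted p under 0.05, 8.73% higher and 8.77% lower in AdLeXis (2094 and 2104 genes). When arrays were instead scaled on their medians, 1157 genes were higher in AdLeXis and 2682 lower.

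Of the 10 members, Acot8 and Acot13 were higher in AdLeXis livers, 0 were lower and 8 did not pass the threshold. That is 2 called members of 10, beside the 17.5% of all genes called and the 8.73% called higher. The median log2 difference of the members was 0.23, against -0.0020 over all genes. Under median scaling these were 0.15 for the members and -0.08 over all genes. The 4 AdLeXis arrays lay above all 4 AdGFP arrays for 2 members, Acot8 and Acot13, beside 12.4% of all genes. The differences ran from -0.28 for Acot9 to 0.92 for Acot2, and 7 were above 0. The plot of member values by array shows that the spread within a group also differed between members: the SD in AdLeXis was 0.022 for Acot13 and 0.78 for Acot1.

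**Figure D1:**
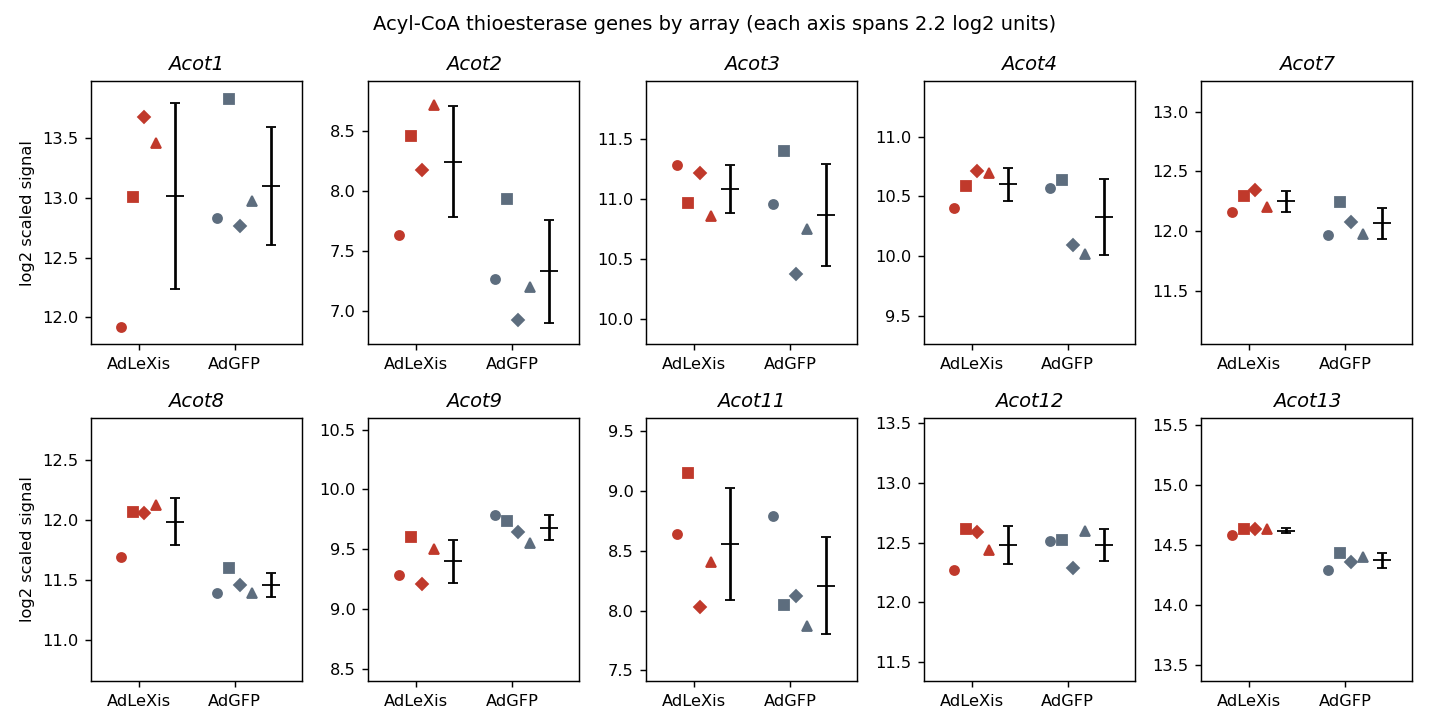
Log2 scaled signal of the 10 members on each array, AdLeXis in red and AdGFP in grey, with circles, squares, diamonds and triangles for replicates 1, 2, 3 and 4, and black bars for the mean and SD (n = 4). Each panel spans the same range on its axis. The groups are apart for Acot8 and Acot13, and Acot1 varies most within the groups.

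The member with the smallest p was Acot8, the main acyl-CoA thioesterase of peroxisomes, which acts on a broad range of acyl-CoAs including bile acid intermediates. It has 2 probes on chromosome 2. One of them (mm9, chr2:164620497-164620556, minus strand), which has the higher mean and stands for the gene, is shown because the call rests on it, and the promoter because Acot8 is the called member of smallest p. The promoter is from RefSeq (GRCm38.p6) and covers 250 bases before and 50 after the annotated start.
Acot8 probe A_55_P2038412: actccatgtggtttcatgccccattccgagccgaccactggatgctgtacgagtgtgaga
Acot8 promoter (chr2:164804832-164805131, minus strand): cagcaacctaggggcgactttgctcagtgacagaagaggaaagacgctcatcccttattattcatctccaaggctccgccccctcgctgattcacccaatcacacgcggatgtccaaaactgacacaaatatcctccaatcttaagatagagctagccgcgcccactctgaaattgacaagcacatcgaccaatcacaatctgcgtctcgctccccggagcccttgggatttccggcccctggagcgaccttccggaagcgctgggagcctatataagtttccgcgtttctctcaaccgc

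The Acot8 signal at this probe was 11.69, 12.06, 12.06 and 12.12 on the AdLeXis arrays, against 11.39, 11.60, 11.45 and 11.39 on the AdGFP arrays. All AdLeXis values lay above all AdGFP values, and AdLeXis replicate 1 was the lowest of its group. The means were 11.98 ± 0.20 in AdLeXis and 11.46 ± 0.10 in AdGFP (SD, n = 4 each), so that Acot8 was 0.53 log2 units higher (SE 0.11, limma adjusted p = 0.0161), or 1.44-fold. The second Acot8 probe, A_55_P2038414 (mm9, chr2:164618269-164618328), gave 11.80, 12.19, 12.11 and 12.23 on the AdLeXis arrays, against 11.16, 11.46, 11.41 and 11.29 on the AdGFP arrays. Its groups did not overlap either, and its difference was 0.75 (SE 0.12, limma adjusted p = 0.00640 over all 34450 kept probes, of which 14.9% were called). Acot8 kept its call without any 1 array (0.48 to 0.62), and gave 0.44 with the arrays scaled on their medians (adjusted p = 0.0687) and 0.33 under normexp background correction (adjusted p = 0.0573). Normexp background correction, here and below, started from the mean spot signal and was followed by quantile scaling. The effects of these steps were not separated.

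Among 14939 other genes with a symbol that is not an identifier, those whose centred signals over the 8 arrays differed least from those of Acot8 were Elmod3, Bckdha, which encodes a subunit of the branched-chain keto acid dehydrogenase, and Amot. The mean absolute difference from Acot8 was 0.033, 0.043 and 0.047 log2 units. Their own log2 differences between AdLeXis and AdGFP were 0.52, 0.49 and 0.53. The likeness covers 8 arrays of 1 slide and includes the step between the groups.

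Acot13, also called Them2, is a mitochondria-associated thioesterase that is abundant in liver and partners with the phosphatidylcholine transfer protein. Its signal was 14.59, 14.63, 14.63 and 14.63 on the AdLeXis arrays, against 14.29, 14.43, 14.36 and 14.40 on the AdGFP arrays (mm9, chr13:24909838-24909897). The arrays of each group lay close together and the groups did not overlap. The means were 14.62 ± 0.022 in AdLeXis and 14.37 ± 0.060 in AdGFP (SD, n = 4 each), so that Acot13 was 0.25 log2 units higher (SE 0.07, limma adjusted p = 0.0430), or 1.19-fold. Among 639 genes within 0.5 log2 units of its mean level, the median difference was -0.03 and 5.48% were called higher. The Acot13 call was close to the threshold and was lost without any 1 of the 8 arrays (0.22 to 0.27, adjusted p = 0.0540 to 0.105), with no filter on dim probes (adjusted p = 0.0850) and with the arrays scaled on their medians (0.17, adjusted p = 0.275). It was also lost with the replicate number as a block (adjusted p = 0.0947). Acot13 was called under 7 of the 18 alternatives, among them quantile scaling (0.34, adjusted p = 0.0141) and loess scaling (0.32, adjusted p = 0.0153). In the fit over all kept probes its only probe did not pass (limma adjusted p = 0.0547).

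Acot2, the mitochondrial matrix enzyme of the first protein type, had the largest difference of the members and did not pass the threshold. Its signal was 7.63, 8.46, 8.17 and 8.72 on the AdLeXis arrays, against 7.27, 7.93, 6.92 and 7.19 on the AdGFP arrays (mm9, chr12:85334071-85334130). The groups overlapped only through AdLeXis replicate 1 and AdGFP replicate 2. The means were 8.25 ± 0.47 in AdLeXis and 7.33 ± 0.43 in AdGFP (SD, n = 4 each), so that Acot2 differed by 0.92 log2 units (SE 0.28, limma adjusted p = 0.0538), with a 95% interval of 0.28 to 1.55. Acot2 passed without AdLeXis replicate 1 (1.12, adjusted p = 0.0240), without AdGFP replicate 2 (1.12, adjusted p = 0.0307), under normexp background correction (0.66, adjusted p = 0.0407), with probes required on all 8 arrays (adjusted p = 0.0372) and with a variance trend (adjusted p = 0.0210). These were 5 of the 18 alternatives. It did not pass under median scaling (0.83, adjusted p = 0.0949), and its adjusted p reached 0.128 without 1 array.

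Acot1, the cytosolic neighbour of Acot2 and a well-known fasting-induced liver gene, showed no shift beyond its spread. Its signal was 11.92, 13.01, 13.67 and 13.46 on the AdLeXis arrays, against 12.83, 13.83, 12.76 and 12.98 on the AdGFP arrays (mm9, chr12:85358561-85358620). The lowest value was that of AdLeXis replicate 1 and the highest that of AdGFP replicate 2, and the groups overlapped. The log2 difference was -0.08, with a 95% interval of -0.99 to 0.82 (limma adjusted p = 0.916). Its sign turned without AdLeXis replicate 1 (0.28), without AdGFP replicate 2 (0.16) and under normexp background correction (0.16), and it was called under none of the 18 alternatives.

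Acot3 and Acot4 encode peroxisomal enzymes of the same gene cluster, Acot4 being the one that also splits succinyl-CoA. Acot4 gave 10.41, 10.59, 10.71 and 10.70 on the AdLeXis arrays, against 10.57, 10.64, 10.10 and 10.02 on the AdGFP arrays. AdGFP replicates 1 and 2 lay within the AdLeXis range, and the difference was 0.27 (SE 0.16, limma adjusted p = 0.290). For Acot4 it was 0.56 under normexp background correction (adjusted p = 0.0575), and leaving out AdGFP replicate 4 gave 0.17. Acot3 has 2 probes, with differences of 0.21 (SE 0.21) and 0.0032 (SE 0.22), and neither passed. The Acot3 difference was 0.39 without AdGFP replicate 2, 0.05 without AdGFP replicate 3, 0.32 under normexp background correction, 0.13 under median scaling and 0.11 with the mean of both probes. The probe with the higher mean, A_55_P2038347, ran from 10.86 to 11.28 in AdLeXis and from 10.38 to 11.40 in AdGFP. The other is shown as the pair of probes differed in their estimate.
Acot3 probe A_55_P2069907 (mm9, chr12:85399468-85399527, plus strand): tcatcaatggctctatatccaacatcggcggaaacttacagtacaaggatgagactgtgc

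These genes stand in a cluster on chromosome 12, whose probes span 118 kb from chr12:85334071 to chr12:85452010 (mm9) in the order Acot2, Acot1, Acot4, Acot3, Acot5 and Acot6. At the probes that stand for the genes, AdGFP replicate 2 had the highest AdGFP signal for each of the 4 members in the cluster. AdLeXis replicate 1 had the lowest AdLeXis signal for Acot1, Acot2 and Acot4 and the highest for Acot3. Ratios within an array were used to ask whether neighbours changed unequally, and only the change of a ratio between groups is read. The log2 ratio of Acot1 over Acot2 was 4.77 ± 0.52 in AdLeXis and 5.77 ± 0.15 in AdGFP (SD, n = 4 each), a change of -1.0 (exact permutation p = 0.0286, two-sided, the smallest possible; 0.171 after Benjamini-Hochberg adjustment over the 6 pairs of the 4 genes). The next pair was Acot2 over Acot4 with a change of 0.65 (exact permutation p = 0.0571, adjusted 0.171). No pair passed after adjustment. A single pair could not have passed, since the smallest possible p of 0.0286 adjusts to 0.171 over 6 pairs. The outcome therefore does not show that neighbours changed equally. Coding sequences of these neighbours are closely alike, and whether a probe also binds a neighbour's transcript was not tested.

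**Figure D2:**
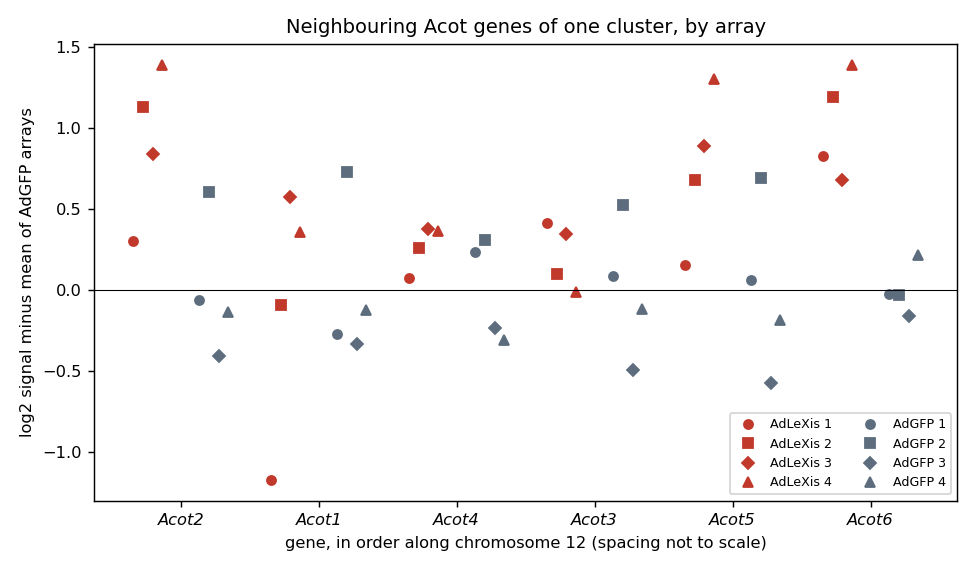
Log2 signal of the 6 cluster genes on each array, minus the mean of the 4 AdGFP arrays for that gene, in their order along chromosome 12. All AdLeXis points lie above all AdGFP points for Acot6, whereas for Acot1 they run from the lowest point of the plot to above 3 of the 4 AdGFP points.

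Acot5 and Acot6, the neighbours in the cluster that are not among the 10, were read from a list of other thioesterases. Acot6 gave 7.36, 7.73, 7.21 and 7.93 on the AdLeXis arrays, against 6.51, 6.50, 6.37 and 6.76 on the AdGFP arrays. Its groups did not overlap, and it was 1.02 higher in AdLeXis (SE 0.17, limma adjusted p = 0.00577). Its second probe, whose groups overlapped, gave 0.66 (SE 0.17, limma adjusted p = 0.0374 over all kept probes). The probes of Acot5, a peroxisomal enzyme, both had differences above 0 but of unlike size, and only the dimmer one passed. The brighter one gave 0.76 (SE 0.31, limma adjusted p = 0.131, or 0.141 over all kept probes). The dimmer one gave 6.08, 6.47, 6.03 and 7.30 on the AdLeXis arrays, against 4.20, 4.87, 5.08 and 4.45 on the AdGFP arrays. That dimmer Acot5 probe differed by 1.82 (SE 0.31, limma adjusted p = 0.00755 over all kept probes), and with the mean of both probes Acot5 was called at 1.29. Acot6 was called under all 18 alternatives (0.78 to 1.14).

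Promoter windows of 300 bases were found in the RefSeq table for 9 of the 10 members (11 windows), all but Acot13. They were searched on both strands for AGGTCA repeated directly with 1 base N between the copies, the element bound by PPARalpha with its partner RXR, allowing up to 2 mismatches outside the N. It was the one motif searched. A match was found in 2 of the 11 windows, those of Acot4 and Acot12, and in 3.86% of all 32851 windows. In Acot4 the match TGACCTTTGGCCG, on the minus strand and with 2 mismatches, begins at position -13 from the start. In Acot12 the match TGACCTCTCACCT, on the minus strand and with 1 mismatch, begins at position -110. Both are shown with the match in capitals, beside the Acot2 window, which holds no match and belongs to the member with the largest difference. A match is a description of the letters and not a site.
Acot4 promoter (chr12:84038129-84038428, plus strand): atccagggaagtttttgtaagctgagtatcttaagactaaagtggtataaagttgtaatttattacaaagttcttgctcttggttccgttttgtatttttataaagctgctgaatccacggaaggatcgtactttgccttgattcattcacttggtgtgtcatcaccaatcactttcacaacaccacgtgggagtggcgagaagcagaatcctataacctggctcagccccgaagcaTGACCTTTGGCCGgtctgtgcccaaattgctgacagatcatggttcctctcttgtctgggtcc
Acot12 promoter (chr13:91741271-91741570, plus strand): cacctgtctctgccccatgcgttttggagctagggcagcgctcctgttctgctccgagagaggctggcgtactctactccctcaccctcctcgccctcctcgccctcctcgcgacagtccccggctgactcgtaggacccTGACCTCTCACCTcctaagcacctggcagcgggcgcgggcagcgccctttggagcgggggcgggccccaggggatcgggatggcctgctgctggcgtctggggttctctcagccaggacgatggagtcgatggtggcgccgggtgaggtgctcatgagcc
Acot2 promoter (chr12:83987611-83987910, plus strand): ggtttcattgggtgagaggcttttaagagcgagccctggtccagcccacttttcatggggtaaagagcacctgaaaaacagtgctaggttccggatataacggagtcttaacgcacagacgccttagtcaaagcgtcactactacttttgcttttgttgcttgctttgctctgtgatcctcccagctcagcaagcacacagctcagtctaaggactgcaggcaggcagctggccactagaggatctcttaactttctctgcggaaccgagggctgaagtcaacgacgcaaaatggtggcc

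Of the members with a match, Acot4 gave the difference of 0.27 described above, and Acot12, a cytosolic enzyme that splits acetyl-CoA in liver, gave -0.0017. Acot12 lay between 12.27 and 12.62 in AdLeXis and between 12.29 and 12.60 in AdGFP (mm9, chr13:91925586-91925645). The ranges were nearly the same, and the 95% interval of the Acot12 difference was -0.25 to 0.25 (limma adjusted p = 0.995).

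The remaining members of the second protein type did not pass the threshold. Acot9, a mitochondrial enzyme, gave 9.28, 9.60, 9.21 and 9.50 on the AdLeXis arrays, against 9.79, 9.73, 9.65 and 9.55 on the AdGFP arrays (mm9, chrX:151731124-151731183). Of the AdLeXis values 3 lay below all AdGFP values, and the difference was -0.28, with a 95% interval of -0.53 to -0.03 (limma adjusted p = 0.117). Under normexp background correction the Acot9 difference was -0.32 (adjusted p = 0.0244).

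Acot7, a cytosolic enzyme best known from brain, ran from 12.16 to 12.34 in AdLeXis and from 11.96 to 12.24 in AdGFP (mm9, chr4:151645802-151645861). Its difference of 0.18 had a 95% interval of -0.03 to 0.39 (limma adjusted p = 0.209), and it was -0.0015 under normexp background correction and 0.10 under median scaling. Acot11, known in brown fat as a cold-induced thioesterase with a lipid-binding START domain, ran from 8.03 to 9.15 in AdLeXis and from 7.87 to 8.79 in AdGFP (mm9, chr4:106417185-106417244). Its difference of 0.35 had a 95% interval of -0.26 to 0.97 (limma adjusted p = 0.415). For Acot11 it was 0.15 without AdLeXis replicate 2 and 0.55 without AdGFP replicate 1.

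Since the size of a difference can vary with signal level, each member was set beside the genes within 0.5 log2 units of its own mean. The medians of these 639 to 2115 genes lay between -0.03 and 0.04. Acot2 and Acot8 lay above the 90th percentile of their comparison genes (0.45 and 0.38), and Acot13 at it (0.25). Acot9 lay between the 10th percentile, -0.45, and the 25th, -0.19, of its own.

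**Figure D3:**
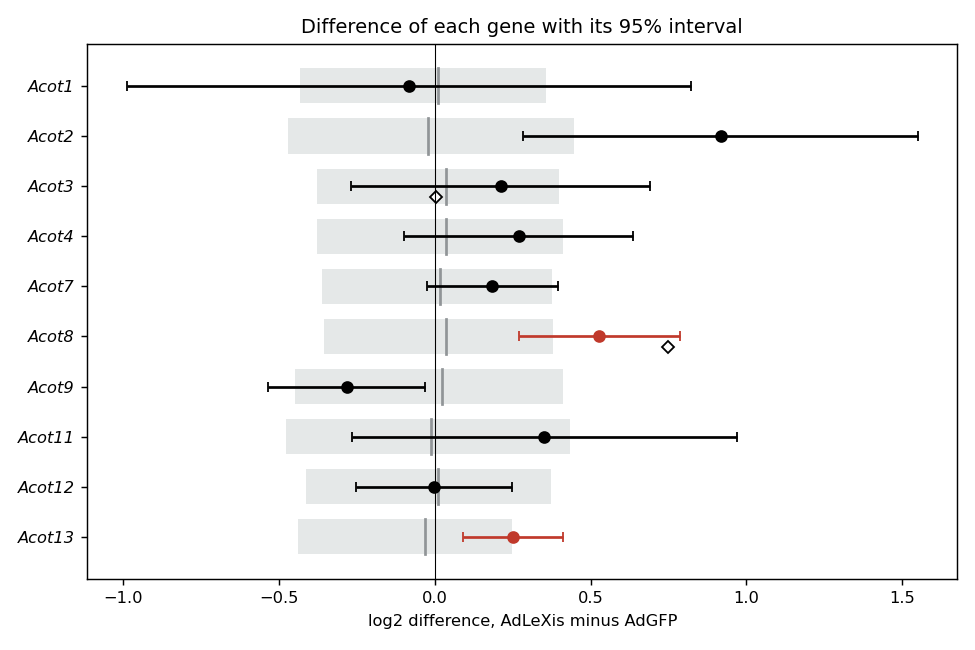
Log2 difference, AdLeXis minus AdGFP, of each member with its 95% interval from the limma fit. Called members are red, open diamonds are the second probes of Acot3 and Acot8, and grey bars run from the 10th to the 90th percentile of genes of like signal with a line at their median. The intervals of Acot2, Acot8 and Acot13 lie above 0 and that of Acot9 below 0. Only Acot8 and Acot13 are called, by the adjusted p, and Acot2 lies highest.

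The genes around the family in acyl-CoA metabolism were read from 6 lists. Their counts stand beside the 8.73% of all genes called higher and the 8.77% called lower. Among the 9 measured other thioesterases, 2 were higher and 1 was lower in AdLeXis, with a median of -0.10 (0.039 under normexp background correction). Besides Acot6, the called ones were the lysosomal palmitoyl-protein thioesterases, Ppt2 at 0.36 (SE 0.073, limma adjusted p = 0.0132) and Ppt1 at -0.63 (SE 0.12, limma adjusted p = 0.00950). Ppt2 lost its call under median scaling (0.28, adjusted p = 0.114), which left 1 higher, and gave 0.55 under normexp background correction. Of 18 acyl-CoA synthetases, which catalyse the opposite reaction, 1 was higher and 5 were lower, with a median of 0.043 (-0.040 under median scaling). Acsm3, a medium-chain synthetase, was 0.74 higher (SE 0.11, limma adjusted p = 0.00442), and Acsm1 gave -0.56, the fatty acid transporter gene Slc27a4 -0.59 and the acetate-activating Acss2 -0.71. Acss2 was called under 9 of the 18 alternatives and in 1 of the 8 fits without 1 array (adjusted p up to 0.0731). Under normexp background correction Acsm1 lost its call (-0.21, adjusted p = 0.132) and Slc27a4 gave -0.37. The lower count was 2 without AdLeXis replicate 3 or 4 or AdGFP replicate 1 or 3, 3 without AdLeXis replicate 2 or AdGFP replicate 2 or 4. The higher count was 3 without AdLeXis replicate 1 or 3. Under normexp background correction 3 synthetases were higher and 2 lower, and under quantile scaling 2 and 5.

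Of 25 PPARalpha targets, 1 was higher and 2 were lower, and the median was 0.040 (0.16 under normexp background correction and -0.04 under median scaling). The very long-chain dehydrogenase gene Acadvl was 0.33 higher (SE 0.089, limma adjusted p = 0.0362). The liver fatty acid-binding protein gene Fabp1 gave -0.49 (limma adjusted p = 0.00485) and the lipid droplet coat gene Plin2 -0.64 (limma adjusted p = 0.0284). Acadvl was called under 10 of the 18 alternatives (0.25 under median scaling, 0.51 under quantile scaling and 0.77 under normexp background correction), and Plin2 under 12. Fabp1 gave -0.06 under quantile scaling (adjusted p = 0.574) and -0.19 under normexp background correction (adjusted p = 0.121). Under normexp background correction 6 of the targets were higher and 1 was lower, and under quantile scaling 4 and 0. For the higher count, without AdLeXis replicate 2, 3 or 4 or AdGFP replicate 1 or 4 the number was 0, without AdLeXis replicate 1 it was 4 and without AdGFP replicate 2 it was 2. The lower count was 1 without AdLeXis replicate 4 or AdGFP replicate 1, 2 or 3.

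Of 19 peroxisomal oxidation genes, with which Acot8 and Acot4 share the organelle, 1 was higher and 0 were lower, with a median of 0.0057 (-0.08 under median scaling, 0.26 under normexp background correction). The called one was Abcd2, a peroxisomal acyl-CoA transporter, at 1.15 (SE 0.22, limma adjusted p = 0.0108), or 0.70 under normexp background correction. Under normexp background correction the peroxisomal count was 7, and it was 3 under quantile and loess scaling and 2 without AdGFP replicate 3; 1 gene was lower without AdLeXis replicate 3. Of 18 mitochondrial oxidation genes, 3 were higher and 0 were lower, with a median of 0.16 (0.08 under median scaling and 0.35 under normexp background correction). They were Hadh at 0.41, Acadvl and Hadha at 0.33, of which Hadh was called under 14 and Hadha under 8 of the 18 alternatives (Hadha at 0.65 under normexp background correction). That count was 8 under normexp background correction, 0 with the arrays scaled on their medians or without AdLeXis replicate 2 or 4 or AdGFP replicate 1, 1 without AdLeXis replicate 3 or AdGFP replicate 4, and 2 without AdGFP replicate 3.

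Of 14 genes of coenzyme A synthesis and breakdown, 2 were higher and 0 were lower, with a median of 0.02 (-0.06 under median scaling). They were Dcakd at 0.63 (SE 0.15, limma adjusted p = 0.0228) and Nudt8, a mitochondrial coenzyme A diphosphatase, at 0.37 (SE 0.093, limma adjusted p = 0.0289). Dcakd was called under 11 and Nudt8 under 10 of the 18 alternatives (Nudt8 at 0.68 under normexp background correction). The peroxisomal diphosphatase gene Nudt7 gave -0.62 and missed the threshold (limma adjusted p = 0.0642). The higher count was 4 without AdLeXis replicate 1, 1 without AdLeXis replicate 3, where 1 gene was lower, and 0 without AdLeXis replicate 2 or 4 or AdGFP replicate 1, 3 or 4 or under median scaling.

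**Figure D4:**
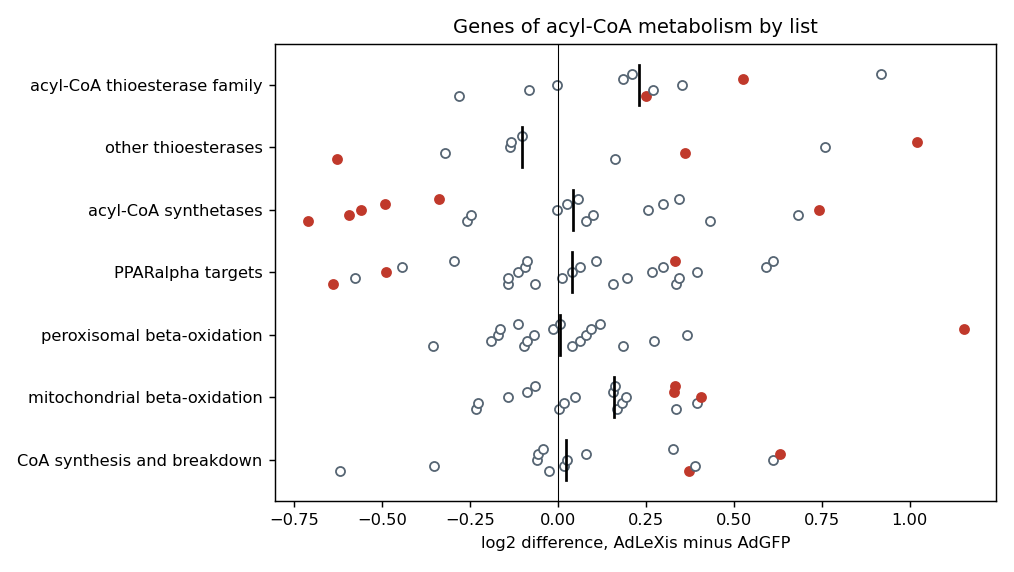
Log2 difference, AdLeXis minus AdGFP, of every measured gene of 7 lists of acyl-CoA metabolism. Filled red points passed the limma threshold, open points did not, and black lines are list medians. The thioesterases have a median of 0.23 and the mitochondrial oxidation genes one of 0.16 (0.15 and 0.08 under median scaling), and the other medians lie between -0.10 and 0.043. Under quantile scaling these 2 medians were 0.21 and 0.21, with 0.15 for PPARalpha targets and 0.15 for peroxisomal genes. Under normexp background correction the 4 were 0.28, 0.35, 0.16 and 0.26. The remaining lists lay between -0.12 and 0.033 under quantile scaling and between 0.0027 and 0.039 under normexp background correction.

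Markers of 4 of the 5 liver cell types looked at differed between the groups, beside 17.5% of all genes. All 12 T and natural killer cell markers were lower in AdLeXis, with a mean log2 level per array of 8.16 to 8.44, against 9.26 to 9.41 in AdGFP. That count was 11 under normexp background correction and ran from 9 to 12 without 1 array. Among 12 markers of Kupffer cells and macrophages, 6 were called lower and 0 higher (10.77 to 11.04 in AdLeXis, against 11.23 to 11.68 in AdGFP). Their lower count was 8 under median scaling and ran from 4 to 8 without 1 array. Vsig4 at 0.50 (limma adjusted p = 0.0936) and Clec4f at 0.10 were above 0 and not called, and the rest were below 0. In this list 1 was called higher under normexp background correction and 1 without AdGFP replicate 4. Of 12 stellate cell markers 4 were lower and 0 higher (9.19 to 9.40 in AdLeXis, against 9.36 to 9.67 in AdGFP). No endothelial marker of 12 was called by limma, with 0 at an unadjusted p under 0.05 and 1 called higher under normexp background correction. Of 11 measured hepatocyte markers 8 were lower (16.90 to 17.10 in AdLeXis, against 17.38 to 17.49 in AdGFP, median -0.48), 5 under loess scaling (median -0.27), 2 under normexp background correction, where 1 was higher (median -0.13), and 1 under quantile scaling (median -0.01). The stellate count was 2 without AdLeXis replicate 2, 3 or 4 or AdGFP replicate 1 or 4. No measured marker was at 0: all were well above background on all 8 arrays but the Kupffer cell marker Timd4, picked out here after its values were seen, which was so on 3 of the 4 AdLeXis arrays. The part of these shifts in the member differences was not tested.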

How the data were processed

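Liver RNA of 4 AdLeXis and 4 AdGFP samples was hybridised to 8 one-colour Agilent arrays. Samples were grouped by the treatment tag, and replicate numbers are those of the titles, which differ from numbers in the file names. The labels do not say that samples came from separate animals, so the spread behind each p-value may be technical. The files as deposited give a linear intensity for every spot, from Agilent Feature Extraction. Its version is 11.5.1.11 per the submitters' processing notes and 11.5.1.1 in the headers. Per the file headers, background had been subtracted and a spatial trend removed from the processed intensity, separately on each array. The deposited value table holds the same intensity, with a relative difference of at most 0, so its scale is linear with no centring. Probe coordinates are mm9.

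The log2 processed intensity was scaled to the 75th percentile of the non-control spots of its array, adding back the mean over arrays. Spots called outliers were dropped (127 to 256 on an array) and repeat spots averaged. A probe was kept if 4 or more arrays had it well above background and each group had it measured on 2 or more. A gene stands for its kept probe with the highest mean, under a name updated through the RefSeq GRCm38.p6 table (27656 probes named by accession, 3401 by symbol, 24624 left as in the files, and 0 members renamed). AdLeXis and AdGFP were compared in limma 3.58.1 (lmFit and eBayes, R 4.3.3), two-sided, with Benjamini-Hochberg adjustment over all genes, or over all kept probes where said, at a threshold of 0.05. Ratios of neighbours were compared by exact permutation over 70 relabellings. The fit and the motif search were tested on simulated data.

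The members and gene lists were chosen with earlier results of these data known, from textbook knowledge, and the lists support nothing beyond their counts. Of other lists up to 4 genes of smallest p may be named, of which 1 is not reported here, and for the called member of smallest p the 3 genes of nearest pattern. Lists share genes: 10 PPARalpha targets, 6 mitochondrial, 3 peroxisomal and 1 coenzyme A gene stand in another list. Them5, Acsl6 and the hepatocyte marker Tf were not measured. Alternatives were other scalings, filters, gene summaries and variance models, the replicate block and leaving out each array. The normexp alternative corrected the mean spot signal for background with an offset of 50 and then applied quantile scaling. The number of arrays limits the precision. Protein sequences and the Acot13 promoter were not used here.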

Additional observations from a re-analysis of the deposited data

Results flagged for a closer look

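At the probes that stand for both called members AdLeXis replicate 1 lay apart from the other AdLeXis arrays by Dixon's ratio, the gap to the nearest array over the range of the group, past its 95% critical value for 4 samples. For Acot13 the ratio was 0.918, with 14.59 on AdLeXis replicate 1, against 14.63 on each of the others. For Acot8 at probe A_55_P2038412 it was 0.848, with 11.69 on that array, against 12.06 to 12.12 on the others. At the second Acot8 probe, A_55_P2038414, the ratio for the same array was 0.729, below the critical value. In both cases the array lay towards the AdGFP values. These were 2 of 24 sets of 4 arrays examined over the 12 member probes, and chance alone picks out about 1 in 20.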

How the results depend on the processing

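The count of 2 called members was 0 with the arrays scaled on their medians and 1 with no filter on dim probes. It was 3 under normexp background correction (Acot2 and Acot13 higher, Acot9 lower), with a variance trend and with probes required on all 8 arrays (Acot2, Acot8 and Acot13 in both). Without 1 array it ran from 1 to 2, and the count of all genes called, 4198, ran from 2519 to 4124, the lowest without AdLeXis replicate 4. Same-numbered arrays deviated together weakly (correlations of 0.013, 0.065, 0.12 and 0.0016). For the AdGFP arrays in that order, the highest correlation with an AdLeXis array of another number was 0.043, 0.077, 0.0012 and 0.10. With 4 arrays per group these values cannot show whether the numbers pair the samples. With the replicate number as a block 1 member (Acot8) and 3150 genes were called. Signs turned for members that were never called. Acot1 gave 0.16 under normexp background correction, and ran from -0.30 to 0.28 without 1 array, above 0 without AdLeXis replicate 1 (0.28) or AdGFP replicate 2 (0.16). Acot7 gave -0.0015 under normexp background correction. Acot12 gave 0.0022 under loess scaling and ran from -0.065 to 0.067 without 1 array, above 0 in 5 of the 8 fits. Over the 10 members and 18 alternatives, 151 kept direction and side of the threshold, 13 lost a call, 6 gained one and 10 turned sign. The cause was not tested.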
